A study of Mus musculus with 24 samples.

Results

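Growth arrest and stress adaptation are described here through 9 mouse genes: Btg1, Cdkn1b, Gadd45g, Sesn1, Klhl24, Fbxo32, Pnrc1, Tsc22d3 and Trib1. They were found by gene symbol, which gave 13 features on the array out of 24157, and all 9 were among the 8315 genes with a value. The genes were selected on earlier results of the same arrays, in which the differences of Btg1 and Gadd45g from day 0 at days 1 and 7 and that of Pnrc1 at day 7 were known; which values led to the other 6 is not recorded. Differences from day 0, and those between days 1 to 3 and later days, are therefore descriptions, given with the standard error (SE) of the fit and without a test of their own.

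Transcripts were measured in HBC-3 cells, a mouse hepatoblast line, on 24 arrays of 2 colours. Each of 8 time points, day 0 before and days 1 to 7 after plating on Matrigel (a basement membrane extract), had 3 arrays with the letters A, B and C. Day 0 cells were undifferentiated HBC-3 cells that had been taken off their fibroblast feeder layer with trypsin, replated on plastic and harvested the next morning, per the labels' protocols, so day 0 and the later days differ in substrate as well as in time. The Cy5 target of each array came from the sample, and the Cy3 target of all arrays came from undifferentiated HBC-3 cells. No label gives a dye swap, a treatment other than Matrigel, or whether the letters stand for separate cultures. Errors and p-values therefore rest on array-to-array spread, part or all of which may be technical.

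Values are log2 of sample over reference after centring each array on its median, so 0 means the level of the reference and 1 means a doubling. The numerator and the log base are not stated with the deposited values, and this reading is the likely one from the dyes and the range of the values. A log ratio carries no level of its own, so the labelled cell type could not be checked from it, and no gene's level is set against another's. In bulk RNA a lower number of expressing cells and less RNA per cell cannot be told apart.

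Proliferating cells that receive too little growth factor signal leave the cycle through a shared circuit. When the kinase AKT is less active, FOXO transcription factors stay in the nucleus and switch on genes that slow the cycle, recycle protein and restrain the growth kinase mTORC1. Some of the same genes also answer to p53, glucocorticoids or other stress signals. Btg1 encodes an antiproliferative protein of the BTG/Tob family, Cdkn1b the cyclin-dependent kinase inhibitor p27, and Gadd45g a small stress-response protein that binds cell cycle and kinase partners. Sesn1 encodes sestrin 1, a stress-induced restraint on mTORC1. Klhl24 and Fbxo32 encode substrate adaptors of ubiquitin ligases, the latter atrogin-1 of muscle wasting. Pnrc1 encodes a nuclear receptor coactivator, Tsc22d3 the glucocorticoid-induced leucine zipper protein GILZ, and Trib1 a tribbles pseudokinase that brings C/EBP factors to a ubiquitin ligase.

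FOXO factors bind DNA at a short core, and 2 of the members carry its letters near a gene start. Searched were GTAAACA and its reverse complement TGTTTAC, the FOXO core, and CAAAACA with TGTTTTG, an insulin response core, in windows from 250 bases before to 50 after each start (RefSeq, GRCm38.p6). The table held 9 windows for 6 members, Btg1, Cdkn1b, Gadd45g, Pnrc1, Sesn1 and Tsc22d3. The FOXO core occurred in 2 of these 9 windows, those of Btg1 and of 1 of the 2 Sesn1 starts, against 3.65% of all 32851 windows. The insulin response core occurred in 0 of the 9, against 6.28% of all windows. The matched stretches are shown because these 2 genes were the members with a searched core in a window. Capitals mark the FOXO core, which lies from -204 to -198 relative to the Btg1 start and from 23 to 29 after the Sesn1 start.
Btg1, chr10:96616751-96616900, plus strand: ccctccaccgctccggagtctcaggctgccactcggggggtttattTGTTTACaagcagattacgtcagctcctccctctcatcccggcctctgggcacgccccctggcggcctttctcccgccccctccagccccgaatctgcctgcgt
Sesn1, chr10:41810453-41810602, plus strand: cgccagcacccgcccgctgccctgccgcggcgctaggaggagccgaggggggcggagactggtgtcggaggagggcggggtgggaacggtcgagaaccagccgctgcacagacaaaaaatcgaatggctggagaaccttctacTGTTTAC
A match of these letters is a description of the window and says nothing about which factor, if any, binds there in HBC-3 cells.

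Some arrays stand apart, and each touches the values below. Across features, day 0 array A correlated with B at 0.755 but with C at -0.343, and B with C at 0.084, although both channels of these arrays held undifferentiated cells. The lowest correlation with a later array was -0.504, between day 0 array A and array B of day 3. The labels state the dyes, so the direction of the ratios was kept. The 4 C arrays of days 4 to 7 resembled one another (0.808 to 0.967) more than the A and B arrays taken on the same day (0.468 to 0.624). The spread of log ratios also grew along the course: the median SD of an array was 0.633 for days 1 to 3, 0.765 for the A and B arrays of days 4 to 7 and 1.03 for the late C arrays, and 0.332 to 0.473 at day 0. Members are therefore also given without the late C arrays and with all arrays scaled to one spread where that changes a value or a call.

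The label did not describe a single pattern. Of the 9 members, 5 (Pnrc1, Sesn1, Klhl24, Btg1 and Tsc22d3) stood above all 3 day 0 arrays on every later array with a value, 1 (Gadd45g) stood below them on every later array, and the other 3 (Fbxo32, Trib1 and Cdkn1b) overlapped day 0 on at least 1 day. The share of all units that stood apart from day 0 on every later array was not counted. At day 1, 4 members passed the limma threshold upward and 1 downward, beside 4.99% and 5.92% of all 10639 units tested. At day 7 these counts were 6 and 1, beside 14.6% and 13% of all units. On days 2 and 3 they were 5 and 1, beside 9.05% and 8.04% of all units on day 2 and 12.2% and 12.3% on day 3. On days 4 and 5 they were 6 and 1, beside 11.3% and 10.9% on day 4 and 11.7% and 11.2% on day 5. On day 6 they were 7 and 1, beside 12.2% and 12.6%. The member that passed downward was Gadd45g on each day. The median difference over the 9 members was 0.64 at day 1 and 1.27 at day 7, beside 0.03 and -0.01 over all units. Because the members were chosen with such values known, nothing is read from these counts.

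All arrays of a later day lay above the day 0 range for 5 members at days 1 and 2, beside 23.5% and 25.9% of all units, for 6 at days 3 and 4, beside 27.9% and 18.3%, for 7 at days 5 and 6, beside 19.9% and 19.4%, and for 6 at day 7, beside 21.8%. They lay below it for 1 member, Gadd45g, on every day, beside 19.8%, 23%, 24.3%, 18.4%, 19.3%, 19.2% and 19.5% of all units on days 1 to 7.

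**Figure D1:**
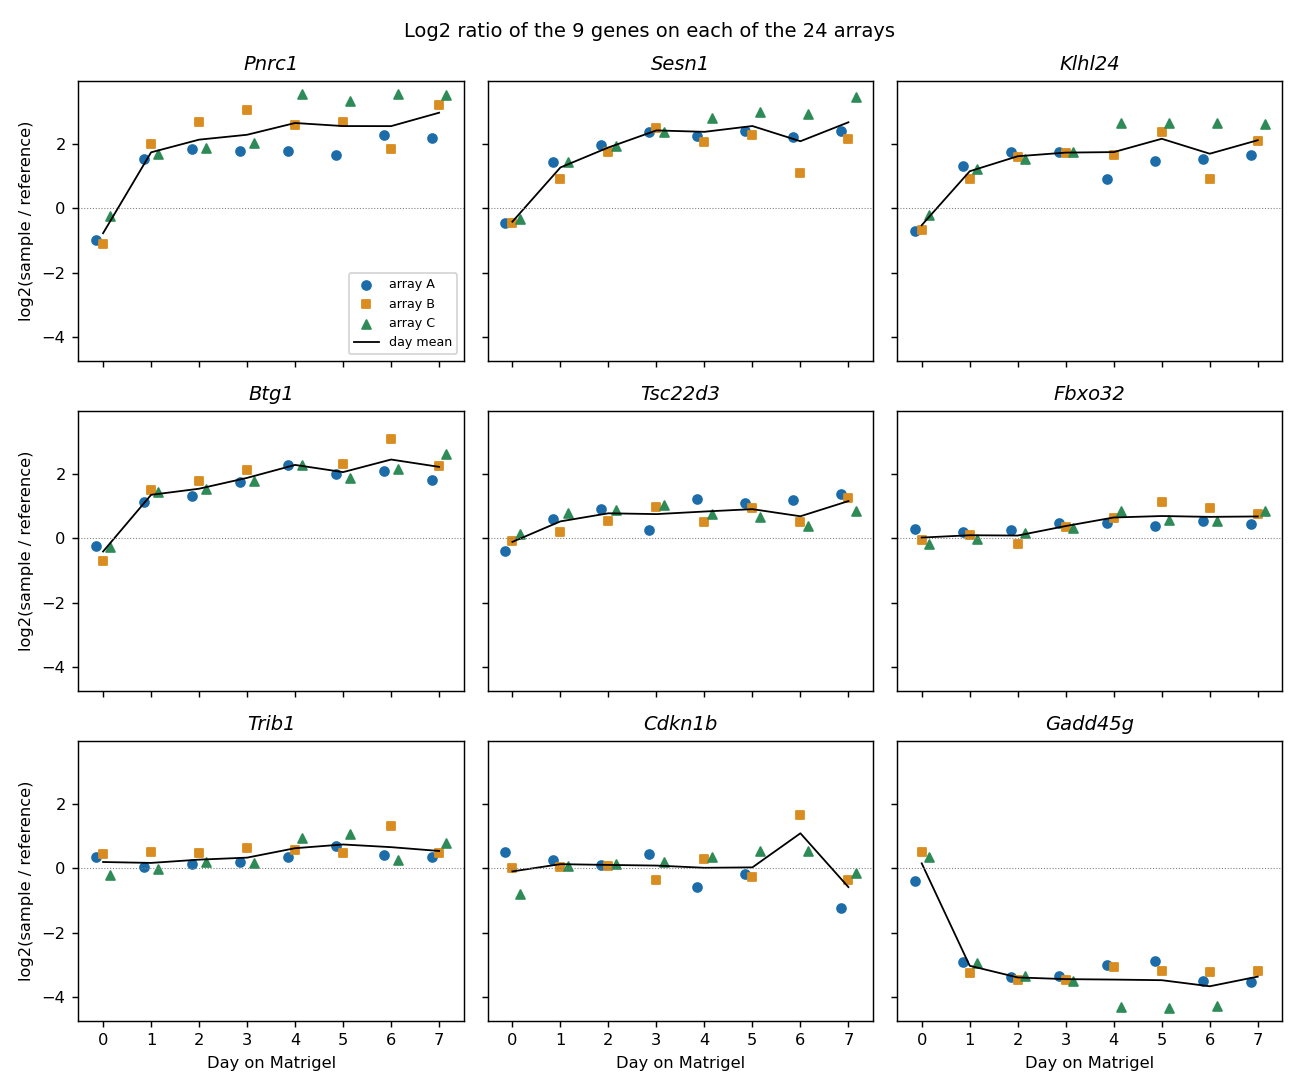
Log2 ratio of sample over reference (vertical axis) by day on Matrigel (horizontal axis) for the 9 genes, with 1 point per array, shaped and coloured by letter A, B or C, and a line through the day means. Gadd45g drops from between -0.41 and 0.52 at day 0 to between -4.34 and -2.89 on the later arrays, while Pnrc1 lies between 1.53 and 3.55 on all of them.

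Gadd45g stood far below day 0 from the first day. Its log2 ratio on the A, B and C arrays was -0.41, 0.52 and 0.34 at day 0 and -2.90, -3.26 and -2.93 at day 1. It then stood at -3.37, -3.46 and -3.35 on day 2 and at -3.35, -3.47 and -3.51 on day 3. The arrays of days 2 and 3 lay within a narrow band, and no later array came near day 0.

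On days 4, 5 and 6 the A and B arrays of Gadd45g lay between -3.51 and -2.89 and the C arrays at -4.30, -4.34 and -4.28. Day 7 arrays A and B stood at -3.55 and -3.19, and array C had no value. The difference from day 0 was -3.18 ± 0.37 at day 1 (n = 3 arrays per day), -3.82 ± 0.37 at day 6 and -3.52 ± 0.42 at day 7 (n = 2), the last an 11.4-fold lower ratio. Among all units tested Gadd45g had the 14th lowest difference at day 1 and between the 3rd and the 8th lowest on days 2 to 7. The means of days 1 to 7 lay between -3.67 and -3.03. The day 1 arrays all lay above those of days 2 and 3, and days 2 to 7 overlapped one another. Its call and direction stayed in all 119 alternatives of the day contrasts.

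Btg1, another gene of growth arrest, moved the opposite way. It stood at -0.25, -0.72 and -0.27 on day 0 and at 1.11, 1.50 and 1.42 on day 1. The arrays of day 2 gave 1.29, 1.78 and 1.53, and those of day 3 gave 1.75, 2.11 and 1.76. From day 4 on, 11 arrays lay between 1.79 and 3.08, and day 4 array B had no value.

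The difference of Btg1 from day 0 was 1.76 ± 0.27 at day 1, 2.28 ± 0.27 at day 3, 2.85 ± 0.27 at day 6 and 2.63 ± 0.27 at day 7, a 6.18-fold higher ratio at day 7. Ordered by mean, the days ran 6, 4, 7, 5, 3, 2, 1 and 0, and each neighbouring pair overlapped except day 1 and day 0. Btg1 did not share the split of the late C arrays: these averaged 2.22 (n = 4) and the late A and B arrays 2.25 (n = 7). Its call stayed in all 119 alternatives of the day contrasts.

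Cdkn1b, the p27 gene, showed no steady change. Its day 0 arrays were spread widely, at 0.51, 0.01 and -0.82, and the 9 arrays of days 1 to 3 lay between -0.38 and 0.43. Day 4 gave -0.59, 0.28 and 0.34, and day 5 gave -0.18, -0.29 and 0.53. The later arrays diverged: day 6 arrays B and C stood at 1.64 and 0.53 with no value on A, and day 7 arrays at -1.22, -0.38 and -0.16. The differences from day 0 lay between 0.11 and 0.23 with an SE of 0.37 on days 1 to 5, at 1.18 ± 0.41 on day 6 (n = 2) and at -0.49 ± 0.37 on day 7. The day 6 call rested on array B, without which 1 day 6 array, C, was left, assumed to vary like the other days; the difference was then 0.63 ± 0.49 and did not pass. It was also lost without day 0 array B or C, at 1.24 and 0.83, and on scaled arrays, at 1.04.

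The sestrin gene Sesn1 climbed over several days. It stood at -0.47, -0.45 and -0.34 on day 0, at 1.43, 0.91 and 1.44 on day 1, at 1.96, 1.75 and 1.94 on day 2 and at 2.37, 2.50 and 2.37 on day 3. The arrays of these 4 days did not overlap from one day to the next; between days 2 and 3 the same held upward for 7.9% of all units. From day 4 on the level spread out, with 2.25, 2.05 and 2.80 on day 4 and 2.39, 2.27 and 2.98 on day 5. Day 6 gave 2.20, 1.10 and 2.93, and day 7 gave 2.39, 2.15 and 3.45.

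The C array was the highest of each of these late days for Sesn1, and day 6 array B the lowest of all. The difference from day 0 was 1.68 ± 0.36 at day 1, 2.83 ± 0.36 at day 3 and 3.09 ± 0.36 at day 7, an 8.49-fold higher ratio. Its call was lost in 1 of 119 alternatives, at day 1 after the day 0 ratios were turned in sign (0.84 ± 0.36).

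Klhl24 followed a similar course at a slightly lower height. It stood at -0.70, -0.67 and -0.22 on day 0, at 1.31, 0.91 and 1.22 on day 1, at 1.74, 1.57 and 1.52 on day 2 and at 1.73, 1.70 and 1.73 on day 3. The late C arrays were nearly equal, between 2.62 and 2.66, while the late A and B arrays ran from 0.90 on day 6 array B to 2.35 on day 5 array B. The difference from day 0 was 1.67 ± 0.41 at day 1 and 2.64 ± 0.41 at day 7, a 6.22-fold higher ratio. The day 1 call was lost without any 1 of day 0 arrays A and B and day 1 arrays A and C, at 1.59 to 1.64. After the day 0 ratios were turned in sign, those of days 1 to 4 and 6 were lost, at 0.61 to 1.21.

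Fbxo32, the atrogin-1 gene, stood near day 0 at first and slightly higher later. Day 0 arrays lay between -0.18 and 0.28, day 1 arrays between -0.03 and 0.20 and day 2 arrays between -0.17 and 0.26, so these days overlapped. Day 3 arrays lay between 0.31 and 0.48, just above, and the 12 arrays of days 4 to 7 between 0.39 and 1.12. The difference from day 0 was 0.07 ± 0.21 at day 1, 0.36 ± 0.21 at day 3 and 0.62 to 0.67 with an SE of 0.21 on days 4 to 7, or 1.58-fold at day 7. Of its 119 alternatives, 28 lost a call of days 4 to 7, among them that of day 7 with arrays scaled (0.56 ± 0.21), without day 0 array B or C, and without day 7 array B or C.

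Pnrc1, the coactivator gene, stood far above day 0. Its day 7 difference exceeded that of Sesn1, 3.74 against 3.09, but not after the day 0 ratios were turned in sign, where they were 2.18 and 2.24. Its log2 ratio was -0.98, -1.11 and -0.25 on day 0 and 1.53, 1.99 and 1.67 on day 1. Day 2 gave 1.82, 2.67 and 1.88, and day 3 gave 1.78, 3.04 and 2.01. On days 1 to 3 array B was the highest each time.

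On days 4 to 7 the C array of Pnrc1 was the highest each time, at 3.55, 3.33, 3.53 and 3.50. The A arrays stayed at 1.78, 1.64, 2.26 and 2.18, and the B arrays at 2.59, 2.67, 1.85 and 3.20. The difference from day 0 was 2.51 ± 0.51 at day 1, 3.06 ± 0.51 at day 3 and 3.74 ± 0.51 at day 7, a 13.4-fold higher ratio. It ranked between 18th and 38th from the top of all units on every day. Ordered by mean, the days ran 7, 4, 5, 6, 3, 2 and 1, and each neighbouring pair overlapped. After the day 0 ratios were turned in sign, the calls of days 1, 2 and 3 were lost at 0.95, 1.35 and 1.50, since the day 0 level itself lies well below 0.

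Tsc22d3, the GILZ gene, stood moderately higher. Day 0 arrays lay between -0.39 and 0.12, the 9 arrays of days 1 to 3 between 0.19 and 1.02 and the 12 of days 4 to 7 between 0.37 and 1.36. The difference was 0.64 ± 0.27 at day 1, 0.94 ± 0.27 at day 4 and 1.27 ± 0.27 at day 7, a 2.41-fold higher ratio. Of its 119 alternatives, 24 lost a call, all on days 2 to 6. The day 7 call stayed in each of them. On scaled arrays Tsc22d3 was called at day 1 (0.84 ± 0.31) and no longer at days 4 and 6 (0.84 and 0.72).

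Trib1, the tribbles gene, stood at 0.34, 0.44 and -0.20 on day 0 and overlapped it on every day but day 5. Its 12 late arrays lay between 0.25 and 1.31, and the difference was largest at day 5, at 0.54 ± 0.27, and 0.34 ± 0.27 at day 7. It did not pass on any day, with a 95% interval at day 7 from -0.22 to 0.91, and at 0.17 ± 0.26 there on scaled arrays. Set against the reference alone, leaving the day 0 arrays out, it passed on days 4 to 7 at 0.53 to 0.73. After the day 0 ratios were turned in sign, Trib1 passed on days 5 and 6, at 0.93 ± 0.27 and 0.84 ± 0.27.

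**Figure D2:**
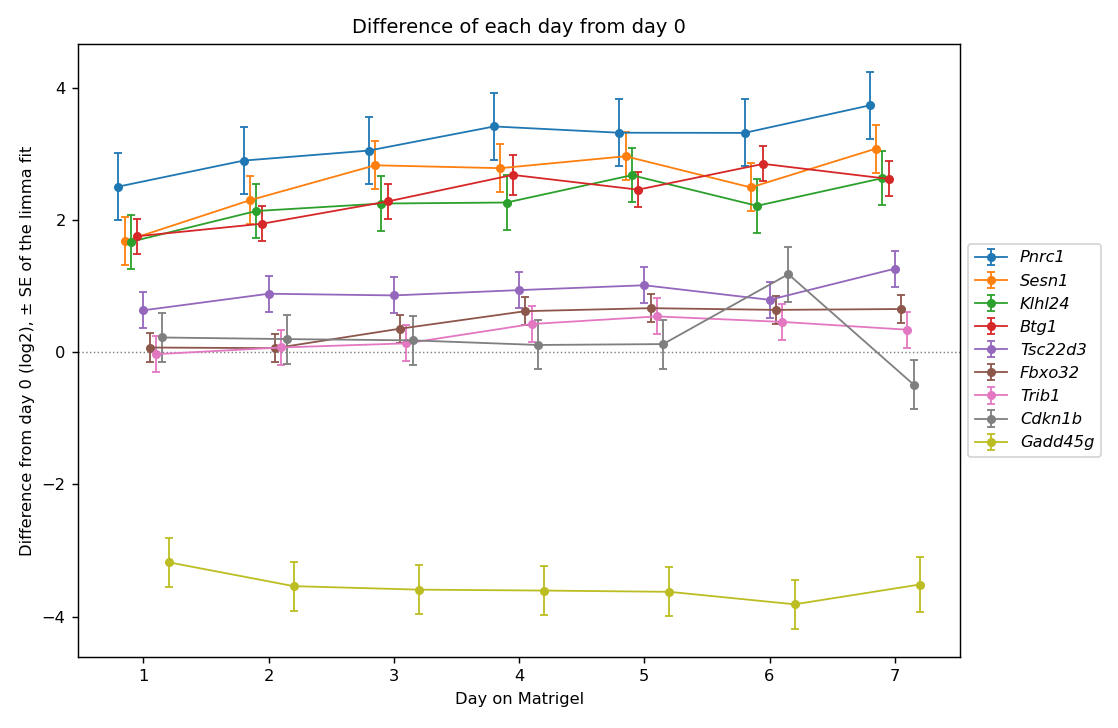
Difference of each day from day 0 on the log2 scale (vertical axis, points with bars of 1 SE of the limma fit) by day on Matrigel (horizontal axis, points shifted sideways for clarity), 1 line per gene. Pnrc1, Sesn1, Klhl24 and Btg1 lie between 1.67 and 3.74, Tsc22d3 between 0.64 and 1.27, and Gadd45g between -3.82 and -3.18.

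The steps between neighbouring days from day 2 to day 6 use no day 0, day 1 or day 7 array. It is not recorded whether values of these days had a part in the choice of the genes. Of the 9 members 0 passed in each of the 4 steps (limma, Benjamini-Hochberg over all units), and of all units 0% passed as well. At an unadjusted p under 0.05, the steps to days 3, 4, 5 and 6 held 0, 0, 0 and 1 members, beside 0.743%, 1.92%, 0.414% and 4.21% of all units. The 1 was Cdkn1b at day 6 against day 5, at 1.06 ± 0.41 (adjusted p = 0.999, limma), with 1 day 6 array missing. For Gadd45g the 95% interval of a step ran from -0.83 to 0.73 between days 2 and 3 and from -0.97 to 0.59 between days 5 and 6. For Pnrc1 the steps ran from -0.09 to 0.36 with an SE of 0.51. Changes of these sizes between neighbouring days could not be told from the spread.

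The part of the day 7 distance already present at day 1 depended on the gene and on the treatment of the arrays. On the log2 scale the day 1 difference was 90.4% of the day 7 difference for Gadd45g, 67.1% for Pnrc1, 66.9% for Btg1, 63.5% for Klhl24, 54.6% for Sesn1 and 50.3% for Tsc22d3, but 11.1% for Fbxo32. After the day 0 ratios were turned in sign they were 89.5% for Gadd45g, 51.7% for Btg1, 43.6% for Pnrc1, 39.1% for Tsc22d3, 39.0% for Klhl24, 37.5% for Sesn1 and 15.5% for Fbxo32. With all arrays scaled to one spread they were 128% for Gadd45g, 96.1% for Pnrc1, 99.0% for Btg1, 92.0% for Klhl24, 83.6% for Sesn1, 74.8% for Tsc22d3 and 20.9% for Fbxo32.

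The later part of the course is thus smaller on scaled arrays. For days 5 to 7 against days 1 to 3, Btg1 differed by 0.65 ± 0.15 and Fbxo32 by 0.49 ± 0.12, and both were past the threshold, beside 3.51% of all units upward. Sesn1, at 0.58 ± 0.21, was not, but was past it without array B of day 6 (0.74) or of day 7 (0.66). The call of Fbxo32 was lost without day 2 array B (0.45). On scaled arrays Btg1 stood at 0.003 ± 0.16, Fbxo32 at 0.34 ± 0.12 and Sesn1 at -0.14 ± 0.16, and none of them passed. Gadd45g stood at -0.21 ± 0.22 in this comparison and at 0.88 ± 0.20 on scaled arrays, where it passed in the opposite direction. For day 7 against day 1, 1 member, Sesn1, was past the threshold, at 1.40 ± 0.36, beside 1.54% of all units upward, from which nothing is read. It was not past it on scaled arrays (0.46 ± 0.28), with only these days fitted (1.40 ± 0.36), nor without any 1 of the day 1 arrays or of day 7 arrays A and C, at 1.01 to 1.54. Between days 1 and 7 the means of the 2 Sesn1 features went from 1.31 to 3.13 and from 1.21 to 2.20.

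For 4 members the late C arrays lay farther from the reference than the late A and B arrays, by 0.94 or more in the mean. The mean of the late C arrays minus that of the late A and B arrays was 1.21 for Pnrc1, 1.08 for Klhl24, 0.94 for Sesn1 and -1.11 for Gadd45g. It was 0.41 for Cdkn1b, 0.18 for Trib1, 0.03 for Fbxo32, -0.03 for Btg1 and -0.36 for Tsc22d3. For Gadd45g, Sesn1, Klhl24 and Pnrc1 every late C array with a value lay outside the range of the late A and B arrays, as did those of 27.1% of the 10621 units with values in both. On scaled arrays the same differences were 0.27, 0.34, 0.11 and -0.02 for Pnrc1, Klhl24, Sesn1 and Gadd45g, and -0.52 and -0.48 for Btg1 and Tsc22d3. Without the late C arrays, the calls of Gadd45g, Btg1, Sesn1, Klhl24, Pnrc1 and Tsc22d3 stayed on every day they had passed, and Fbxo32 lost those of days 4 and 7, at 0.53 and 0.58.

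**Figure D3:**
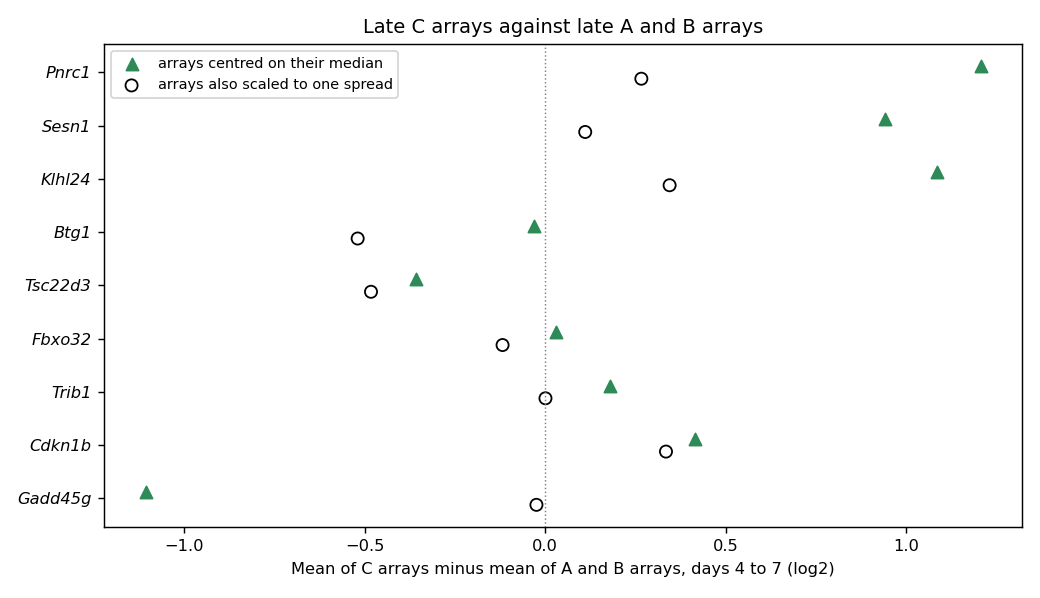
Mean of the C arrays minus mean of the A and B arrays of days 4 to 7 on the log2 scale (horizontal axis) for the 9 genes (vertical axis). Filled triangles use arrays centred on their median, where Pnrc1 lies at 1.21 and Gadd45g at -1.11, and open circles arrays also scaled to one spread, where they lie at 0.27 and -0.02.

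Genes with more than 1 feature gave a check within each array. The 2 Sesn1 features had the same sign on all 19 arrays with both, with a median distance of 0.25. They parted most on day 7 array A, at 3.11 and 1.66, a distance of 1.45. The values of arrays A and B of day 6, array C of day 4 and array C of day 0 rest on the second feature alone, and that of day 4 array B on the first.

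The 3 Klhl24 features had the same sign on all 23 arrays with at least 2 of them, with a median range of 0.74 and the widest on day 5 array C, from 1.80 to 3.32. Day 0 array C had a value for 1 Klhl24 feature only. The 2 Tsc22d3 features had the same sign on 19 of 20 arrays, the exception being day 3 array A, at 0.78 and -0.26. The other 6 members had 1 feature each, so nothing within the array checks them.

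**Figure D4:**
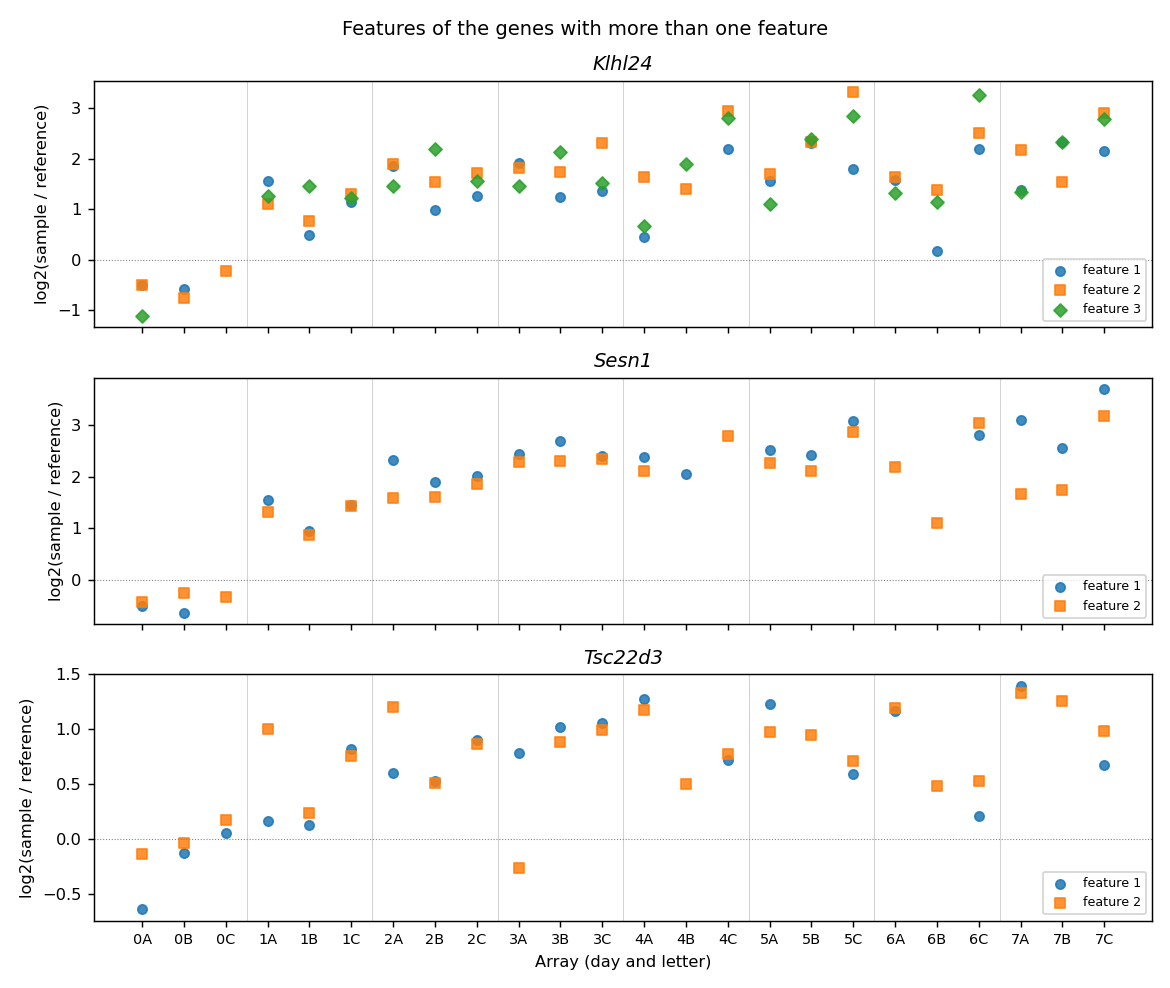
Log2 ratio of sample over reference (vertical axis) of each feature of Klhl24, Sesn1 and Tsc22d3 on each array (horizontal axis, day and letter). All features of Klhl24 and Sesn1 lie above 0 on every array after day 0, and 1 Tsc22d3 feature lies at -0.26 on day 3 array A.

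Members resembled each other in part. Over all arrays Klhl24 and Pnrc1 correlated at 0.950 (n = 24), Sesn1 and Klhl24 at 0.941 and Sesn1 and Pnrc1 at 0.904, and Gadd45g with Pnrc1 at -0.926 (n = 23). Within days 1 to 7 these were 0.837, 0.819, 0.678 and -0.755. Btg1 correlated with Klhl24 at 0.782 over all arrays but at 0.227 within days 1 to 7, where it lay closer to Fbxo32 (0.775) and Trib1 (0.745). The arrays share the reference and the letter pattern, so these values describe the arrays only.

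Among 5247 other genes with values on at least 22 arrays, the closest in pattern to Pnrc1 were Bnip3l and Ctps2 (r = 0.962 and 0.958 over 24 arrays). For Sesn1 they were Lamp2 and Serping1 (0.952 and 0.950), for Klhl24 Manba and Cryz (0.947 and 0.946), and for Btg1 Ctsb and P2rx4 (0.953 and 0.949). For Gadd45g they were Basp1 and Fam107b (0.961 and 0.942) and for Tsc22d3 Asah1 and Fbxo8 (0.917 and 0.897). The likenesses of Cdkn1b to Rpl23 and Rpl36a (0.885 and 0.871), of Trib1 to Rubcn and Socs5 (0.858 and 0.801) and of Fbxo32 to Nceh1 and Abca1 (0.831 and 0.826) were lower. This order did not hold within days 1 to 7. With the first-named gene, r was then 0.859 for Pnrc1, 0.843 for Sesn1, 0.865 for Klhl24, 0.788 for Btg1 and 0.874 for Gadd45g. It was 0.861 for Tsc22d3, 0.874 for Cdkn1b, 0.882 for Trib1 and 0.791 for Fbxo32.

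Related genes from fixed lists were measured only in part, and the counts read beside 10.9% of all units called at day 1 and 27.6% at day 7 in either direction. Of 28 other FOXO target genes 5 were tested. At day 7, 3 of these rose and 0 fell: Bnip3 by 3.50 ± 0.63 and Map1lc3b by 2.25 ± 0.31, which encode proteins of mitophagy and autophagosomes, and Txnip, a thioredoxin inhibitor, by 2.31 ± 0.54. Bnip3 and Map1lc3b had also risen at day 1, by 2.55 and 1.49. The median of the 5 was 2.25 at day 7. After the day 0 ratios were turned in sign, 1 of them was higher and 1 lower at day 7.

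Of 34 genes of the insulin, AKT and FOXO pathway 13 were tested, with a median of 0.02 at day 7. At day 7, 2 of them rose, Foxo1 itself by 0.74 ± 0.22 and Tsc1, a brake on mTORC1, by 1.16 ± 0.42, and Ywhae, of a 14-3-3 protein, fell by 1.59. At day 1 only Irs1, an adaptor of the insulin receptor, passed among the 13, at -0.71. Foxo3 stood at 0.60 ± 0.32 at day 7 and did not pass.

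Of 25 p53 target genes 9 were tested. At day 7, 4 rose, among them Trp53inp1 by 3.05 ± 0.28 and the DNA repair gene Xpc by 1.70 ± 0.27, and 2 fell, among them the nuclease gene Aen by 1.78. At day 1 Trp53inp1 rose by 1.82 and Aen fell by 1.10. Of 8 other growth arrest genes tested, Gas6 rose by 1.06 and Ccng1 fell by 0.70 at day 7, and 0 passed at day 1. The median of these 8 was 0.11 at day 7.

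Of 12 relatives of the members by family 6 rose and 0 fell at day 7, with a median of 0.85. Trib2 rose by 2.43 ± 0.45, Fbxo8 by 1.57 ± 0.24 and Klhl7 by 1.39 ± 0.30. Trib2 and Fbxo8 had risen at day 1 by 1.96 and 1.05. Neither Trib3, at -0.22, nor the Btg1 relative Tob2, at 0.07, passed at day 7.

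Partners of p27 and related genes were tested beside the Cdkn1b values. The 16 tested were cyclins, kinases, ubiquitin ligase parts and others, such as the transcription factor genes E2f3 and E2f4. Of these, 9 fell and 2 rose at day 7, with a median of -0.90. Cks1b, needed for p27 breakdown, fell by 1.79 ± 0.26, E2f4 by 1.71 ± 0.51 and Cdc34 by 1.30 ± 0.34. The 2 that rose were Cul1, by 0.95 ± 0.31, and Skp1, by 0.74 ± 0.25. At day 1, 3 fell, Ccnd2 by 1.02, Cks1b by 0.77 and Skp2 by 0.70, and 0 rose. The wider list of 38 replication and cell cycle genes had 3 lower at day 1 and 25 at day 7, with medians of -0.37 and -1.31. Cks2 fell by 1.51 at day 1 and fell by 3.03 at day 7, and Rrm2, of the enzyme that makes deoxynucleotides, fell by 2.50 at day 7. On scaled arrays the counts were 12 and 20.

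Of 10 other glucocorticoid response genes 4 rose at day 1, Mt1, Mt2 and Klf9 by 2.09, 2.07 and 1.41 among them, and 2 at day 7, Klf9 by 2.54 ± 0.35 and Glul by 1.11 ± 0.32. The glucocorticoid receptor gene Nr3c1 stood at 0.36 ± 0.42 and Fkbp5 at -0.01 ± 0.21 at day 7. Of 11 immediate early genes 0 passed at day 1 and Zfp36l1 alone rose, by 2.48 ± 0.34, at day 7. Of 7 partners of Trib1 and Pnrc1, Cnot2 rose by 0.53 at day 1 and 0.75 at day 7, and the decapping gene Dcp1a fell by 0.46 at day 7.

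Fibroblasts formed the feeder layer from which day 0 cells were taken, so their markers are given beside the members. The median log2 ratio over 10 measured markers was -0.77, -0.49 and 0.09 on the A, B and C arrays of day 0. It lay between 0.16 and 0.62 at day 1, between 0.88 and 1.13 at day 3 and between 0.15 and 0.56 at day 7. Of the 10, 3 rose and 0 fell at day 1, the receptor gene Pdgfrb by 2.29 most, and likewise at day 7, the matrix gene Dcn by 6.06 most, while Col5a1, Col5a2 and Col6a2 stood at -0.16, -0.71 and -0.52 at day 7. For days 5 to 7 against days 1 to 3, the median difference of the 10 markers was -0.36, beside -0.02 over all units. After the day 0 ratios were turned in sign, 0 rose and 2 fell at day 7. On day 0, Pnrc1, Klhl24 and Tsc22d3 were lower on arrays A and B than on C. Sesn1 was too after averaging its features, but array C has a value for 1 of them only. On that feature arrays A, B and C stood at -0.43, -0.26 and -0.34, so C lay between A and B. Cdkn1b, Fbxo32 and Trib1 were higher on arrays A and B than on C, and the A and B values of Btg1 and Gadd45g lay on both sides of C. Of 4 macrophage and blood markers 1 rose at each of these days, Hba-a1 by 1.33 and Tyrobp by 2.29, and the 1 endothelial marker tested did not pass. Of 4 hepatoblast markers tested 0 passed at day 1, and 3 rose at day 7: H19 by 3.34, Afp by 1.93 and Igf2 by 1.80. Whether other cells or the day 0 arrays have a part in the members' values was not tested.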

How the data were processed

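The authors deposited 1 table of log2 ratios, 24157 features by 24 arrays. Per the labels' protocols, RNA was amplified and the Cy5 target came from the sample and the Cy3 target from undifferentiated cells. For scanning, background correction, normalization and empty cells, no step is given in the sources used here. Base and numerator are read from range and dyes. Deposited array medians lay between -0.025 and 0.030. Symbols came from the platform annotation, updated through Entrez identifiers (13290 of 13319 features with 1 symbol); 589 features with several genes stayed unnamed.

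Each array was centred on its median and features of a gene were averaged. Units needed 2 or more measured arrays at every day, which kept 10639 of 19153. The model (limma 3.58.1, R version 4.3.3, lmFit then eBayes) had 8 day means, with p-values adjusted by Benjamini-Hochberg within each comparison at 0.05, 2-sided. All 9 members passed this filter. A trial of the fit on simulated data drew the noise of each array independently. It therefore does not cover the correlation of same-letter deviations seen within days 1 to 3 and within days 4 to 7. With 3 arrays per day, their number limits the precision, and the median SE of a change from day 0 was 0.311 to 0.317.

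Members and gene lists were chosen with earlier results of these data known. Named were all members, up to 3 called genes per list at days 1 and 7, and the 2 genes closest to each member over at least 22 arrays. A few others were named after their values were seen: Foxo3, Trib3, Tob2, Nr3c1, Fkbp5, Cul1 and Skp1. Alternatives changed centring, scaling, filter, feature summary, day 0 sign, control, replicate block and arrays left out.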

Additional observations from a re-analysis of the deposited data

Results flagged for a closer look

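The distance of Sesn1 from day 0 differed between day 1 and day 7 in the fit, which is a description because the genes were selected on these arrays. Its difference from day 0 was larger at day 7 than at day 1 by 1.40 ± 0.36 (log2, SE, n = 3 arrays per day). With arrays scaled it was 0.46 ± 0.28, and without any 1 of the day 1 arrays 1.23 to 1.49. Without day 7 array A it was 1.54 and without day 7 array C 1.01. It did not pass the threshold in any of these settings, nor with only these days fitted. The 2 Sesn1 features differed here. The mean of 1 feature went from 1.31 at day 1 to 3.13 at day 7, and that of the other from 1.21 to 2.20. On day 7 this other feature stood at 1.66, 1.74 and 3.19 on arrays A, B and C. The cause was not tested.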

How the results depend on the processing

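The counts of members were stable under most alternatives. The 4 members higher at day 1 became 1 after turning the sign of every day 0 array, and the 1 member lower at day 7 became 2 with that of day 0 array C turned. Leaving out 1 array gave 3 to 4 higher and 1 lower at day 1, 5 to 6 higher and 1 lower at day 7, and 0 in each step between days 2 and 6. Over all units, the 1161 called at day 1 became 3259 with arrays scaled, 515 with day 0 turned, 1756 with the filter on the compared groups, 1801 without it, 2577 with only these groups fitted, 2271 without the late C arrays, and 330 (without day 0 array B) to 1565 without 1 array. The 2940 of day 7 became 1230 with day 0 turned, 1607 with only these groups fitted, and 1616 (without day 0 array B) to 3100. Gadd45g reversed between days 5 to 7 and days 1 to 3 on scaled arrays, at 0.88. Same-letter deviations correlated above 0.1 in 9 of 9 pairs within days 1 to 3, 18 of 18 within days 4 to 7, 21 of 36 between these and 4 of 21 with day 0, so letters go together within each span of later days but not over all days. With the letter as a replicate block, 2 calls were gained, Btg1 at day 7 against day 1 (0.87 ± 0.24) and Sesn1 at days 5 to 7 against days 1 to 3 (0.58 ± 0.16), no member's call was lost, and 0 members passed in the steps. Of 616 list counts under alternatives, 140 moved by over 1.5 times.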
